A study of Mus musculus with 131 samples.

Results

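The regions described here are 200 bp stretches of the mouse genome (tiles) in which methylation was higher in adult than in newborn hepatocytes. They were chosen by their values in whole-genome bisulfite sequencing (WGBS), which reads the methylation of single CpG sites. A tile is a member when it has a value in each of the 3 WGBS libraries and when the adult WT library lies at least 35 percentage points above the newborn WT library, with no rule on other tissues. Of 8049849 tiles with 3 values, 21052 (0.262%) met this rule. A loss of the same size was seen in 131337 tiles, or 6.24 for each gained tile. A further 301 tiles had the same difference but no value in the mutant library, and were not counted.

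All mice were of the C57Bl strain. Hepatocytes, the main cell type of the liver, were purified for WGBS, for the liver samples of RRBS other than cultures, for RNA and for histone marks, whereas the cultures were begun from newborn liver cells without sorting, per the study's methods. WGBS was made from 1 library each of newborn WT hepatocytes (labelled 1 week), of adult WT hepatocytes from uninjected mice of 15 weeks, and of adult DKO hepatocytes of 15 weeks. DKO mice carry floxed Tet2 and Tet3 and were injected at 1 day or at 3 weeks with AAV8 that expresses Cre from the hepatocyte-specific Tbg promoter, and the WGBS mutant was injected at 1 day. The injected controls received the same Cre virus at 1 day or at 3 weeks, so that virus and Cre are shared by controls and mutants, and both were examined at 15 weeks. Reduced representation bisulfite sequencing (RRBS) covers CpG-rich fragments. It came from 2 WT mice of 3 weeks, and from 3 controls and 2 DKO mice for each time of injection. RRBS was also made from 2 mice without the insulin receptor in hepatocytes (InsR KO, injected at 1 day) and from 2 cultures of newborn liver cells. The cultures are labelled hepatocyte, 1 week, and were grown for several weeks, per the study. Other tissues were 1 fat sample of 25 weeks and 1 neutrophil sample of 36 weeks. RNA-Seq came from 1 WT library of 1 week, 3 each of 3 and 15 weeks, 3 controls for each time of injection, 3 DKO mice injected at 1 day and 2 injected at 3 weeks. Peak lists came from 1 library each of H3K4me1 and H3K27ac in WT and DKO hepatocytes of 15 weeks (mutants injected at 1 day), 1 of 5hmC at day 20, and 2 each of ATAC-Seq and HNF6 ChIP-Seq in WT liver and in liver with Tet2 and Tet3 deleted after birth, for which the labels give no age. Letters A to C name the mice of a group in order and carry no pairing between groups. In groups with both RRBS and RNA, the same letter stands for the same animal number.

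DNA methylation in mammals is placed mainly on the cytosine of CpG sites. DNMT3A and DNMT3B add methyl groups to unmethylated sites, DNMT1 copies the pattern after replication, and TET enzymes oxidise the methyl group to 5-hydroxymethylcytosine (5hmC) as a first step of its removal. CpG-rich promoters are usually kept free of methylation, whereas gene bodies and intergenic DNA are mostly methylated. After birth the liver stops producing blood cells and its hepatocytes leave the fetal programme and take up metabolic functions.

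The following sequences of build mm9 (plus strand, CpG pairs in capitals) are those on which the results turn. Sh3bp2 encodes an adaptor of tyrosine kinase signaling, and its tile had the highest gain among tiles that RRBS also measured. The stretch shown starts at the annotated start codon, since the rest of the tile is partly untranslated exon. Zmiz1 encodes a coactivator of transcription of the PIAS family. Its 2 tiles belong to the run with the most CpG sites and lie in the annotated promoter of an internal transcript. Rnf39 (a RING finger gene of the MHC region), Mapk15 (an atypical MAP kinase), Kremen1 (a receptor for Dickkopf, an inhibitor of Wnt signaling) and Tenc1 (a focal adhesion protein of the tensin family) hold the tiles that differed between DKO and control mice. Nfib encodes a transcription factor of the nuclear factor I family, and its tile is part of one of the 2 longest runs. Afp encodes alpha-fetoprotein, the main plasma protein of the fetal liver, and the stretch shown lies just before its transcription start. This last one was chosen after its values were seen.
Sh3bp2, chr5:34892282-34892400: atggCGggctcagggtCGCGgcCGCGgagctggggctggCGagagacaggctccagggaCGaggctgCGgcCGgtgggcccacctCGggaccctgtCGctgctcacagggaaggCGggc
Zmiz1 left, chr14:26426601-26426800: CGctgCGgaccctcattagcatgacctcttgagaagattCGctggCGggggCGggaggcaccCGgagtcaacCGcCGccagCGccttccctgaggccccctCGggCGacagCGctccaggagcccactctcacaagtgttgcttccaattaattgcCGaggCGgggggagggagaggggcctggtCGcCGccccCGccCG
Zmiz1 right, chr14:26427001-26427200: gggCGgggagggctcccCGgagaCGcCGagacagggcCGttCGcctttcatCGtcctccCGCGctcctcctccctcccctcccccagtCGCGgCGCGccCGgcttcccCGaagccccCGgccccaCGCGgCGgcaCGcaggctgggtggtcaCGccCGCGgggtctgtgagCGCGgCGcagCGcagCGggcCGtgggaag
Rnf39, chr17:37084201-37084400: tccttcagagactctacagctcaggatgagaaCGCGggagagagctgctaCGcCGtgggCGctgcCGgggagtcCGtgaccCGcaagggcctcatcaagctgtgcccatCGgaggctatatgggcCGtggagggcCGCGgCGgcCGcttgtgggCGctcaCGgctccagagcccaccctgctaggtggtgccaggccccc
Mapk15, chr15:75828201-75828400: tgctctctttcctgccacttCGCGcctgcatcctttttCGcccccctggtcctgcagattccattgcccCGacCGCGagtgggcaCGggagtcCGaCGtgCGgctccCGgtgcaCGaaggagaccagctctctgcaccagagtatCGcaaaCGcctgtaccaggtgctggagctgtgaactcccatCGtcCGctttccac
Kremen1, chr11:5096201-5096400: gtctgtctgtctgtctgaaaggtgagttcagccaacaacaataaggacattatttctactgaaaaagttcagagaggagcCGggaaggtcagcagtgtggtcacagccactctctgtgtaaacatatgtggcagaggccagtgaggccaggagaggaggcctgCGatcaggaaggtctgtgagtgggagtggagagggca
Tenc1, chr15:101937201-101937400: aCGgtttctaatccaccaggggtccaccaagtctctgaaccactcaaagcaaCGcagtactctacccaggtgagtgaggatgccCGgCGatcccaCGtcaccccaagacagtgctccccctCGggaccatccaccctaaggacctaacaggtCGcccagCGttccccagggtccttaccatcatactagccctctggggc
Nfib, chr4:82182801-82183000: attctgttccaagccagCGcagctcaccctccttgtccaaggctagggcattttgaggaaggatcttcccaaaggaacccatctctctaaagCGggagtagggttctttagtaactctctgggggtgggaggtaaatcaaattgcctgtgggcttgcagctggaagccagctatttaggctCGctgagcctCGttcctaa
Afp, chr5:90919601-90919739: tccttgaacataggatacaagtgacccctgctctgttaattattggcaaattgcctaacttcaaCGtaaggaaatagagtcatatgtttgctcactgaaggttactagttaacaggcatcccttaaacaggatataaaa

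They range from 29 CpG sites in the right Zmiz1 tile to 2 in the Kremen1 tile, and the Afp stretch holds 1. The Rnf39 tile lies within a coding exon, and 106 of the 200 bases of the Mapk15 tile, 50 of the Tenc1 tile and all 119 bases shown for Sh3bp2 are coding. In contrast, the Kremen1 and Nfib tiles are intronic. The 3 WGBS libraries gave 2.75% in newborn, 77% in adult WT and 49.5% in DKO hepatocytes for the Sh3bp2 tile. For the left Zmiz1 tile these levels were 4.03%, 70.9% and 67.6%, and for the right one 4.67%, 72.1% and 58.0%. The Rnf39 tile was at 0.567%, 59.4% and 21.2%, and the Mapk15 tile at 1.76%, 38.7% and 8.44%. In both of these, unlike in Sh3bp2 and Zmiz1, the mutant was closer to the newborn than to the adult level. In Kremen1 the mutant lay above both others, with 5.77%, 42.9% and 84.4%. The Tenc1 tile was at 18.1%, 54.7% and 62.7%, the Nfib tile at 17.6%, 83.3% and 85.7%, and the Afp tile at 1.11%, 37.7% and 55.7%.

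Over all members, mean WGBS methylation was 38.3% in newborn (SD over tiles 15.2), 79.9% in adult WT (SD 14.1) and 67.1% in DKO hepatocytes (SD 17.0). The corresponding means over all 8049849 tiles were 78.7%, 75.8% and 76.4%. The newborn and adult levels chose the members and are a description only. Each WGBS condition is a single library, so these values have no replicate check. The median gain was 39.6 points and the highest 96.2 points. Most members lay near the limit, since 51.7% gained less than 40 points and 2284 tiles gained 50 points or more. Just inside the limit, the 3035 tiles with gains of 35 to 36 points had means of 44.1%, 79.6% and 66.7% in newborn, adult WT and DKO. Just outside it, the 3163 tiles at 34 to 35 points had 44.3%, 78.8% and 67%. Unmethylated newborn DNA was the exception: 2816 members (13.4%) were under 20% in the newborn, and 113 of all members went from under 20% to 80% or more.

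The gains were mostly confined to single tiles. The 21052 tiles formed 20092 separate regions, and 96.5% of these were 1 tile long. Runs of 2 or more adjacent gained tiles held 1669 tiles, with 571 runs of 2, 88 of 3 and 2 of 10 tiles. In the tiles next to a member, the newborn library was still below the adult one, at 65.9% against 71.3% on the left and 65.7% against 71% on the right. At 3000 bp to the left the order was the reverse, with 76.7% in the newborn and 74.6% in the adult.

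**Figure D1:**
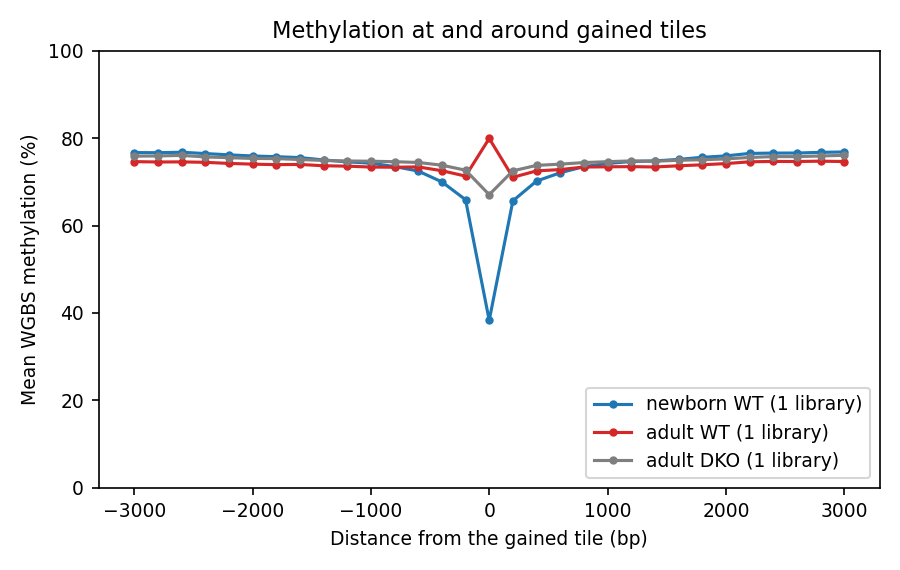
Mean WGBS methylation in percent (vertical axis) against distance from the gained tile in bp (horizontal axis), for the 1 newborn WT, 1 adult WT and 1 adult DKO library. At the tile itself the means are 38.3%, 79.9% and 67.1%, and within 3000 bp to the left the newborn line rises to 76.7%, above the adult one at 74.6%.

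The level of the DKO library was not used to choose members, whereas its difference from the newborn or the adult library shares one library with the rule and is therefore only described. In the mutant, 33.9% of members (7146 tiles) were at least 35 points above the newborn, against 0.533% of all tiles. The median share of the gain that was present in the mutant was 69.7%. Of all members, 3902 were above the adult level in the mutant, 735 were below the newborn level, and 1567 were at least 35 points below the adult level. Thus the mutant lay between the newborn and the adult level at most members.

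How close the mutant came to the adult level varied with the newborn level and with the number of CpG sites. For tiles under 10% in the newborn, the median share of the gain in the mutant was 93%, and it was 90.4% at 10 to 20%, 80.4% at 20 to 30%, 73.3% at 30 to 40%, 67% at 40 to 50% and 57.7% from 50% on. With 0 to 1 CpG sites per tile (15090 members) the share was 63.1%, and it was 75.8% with 2, 86.8% with 3, 93.2% with 4, 95.3% with 5 to 9 and 96.4% with 10 or more (298 members). This share is built from the newborn and adult levels that chose the members. Tiles from 50% on in the newborn had to be high in the adult library, with a mean of 94.5%, against 51.9% for those under 10%. The part of the rule in these trends was not tested. Tiles with few CpG sites rest on few readings, and the part of counting error in these shares was not tested either. In the runs of 2 or more tiles, the means were 26.8% in newborn, 72.5% in adult WT and 70.3% in DKO, against 39.3%, 80.6% and 66.8% in single tiles. The tiles that lost methylation had means of 77.1%, 26.3% and 72.7%, so that their mutant level stayed near the newborn one.

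Gained tiles were poor in CpG sites, whereas those in runs were rich in them. The mean number of CpG sites per tile was 1.75 in members, 2.47 in all tiles and 4.75 in runs, and the GC content was 45.2%, 43.6% and 51%. The rate of gain was highest in tiles with 0 to 1 sites (0.470%) and lowest in those with 4 (0.0963%), and went up again to 0.244% in tiles with 10 or more sites. In this CpG-rich class 1.22 tiles lost methylation for each gained one, compared with 14.6 in tiles with 4 sites. Across chromosomes 1 to 19, the share of gained tiles ranged from 0.214% to 0.307%.

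Promoters, taken as 1 kb before to 100 bp after any annotated transcription start, held 4.06% of members (854 tiles, 95% Wilson interval 3.8 to 4.33) and 3.00% of all tiles. Gene bodies held 46.0% and intergenic DNA 49.9% of members, against 44.3% and 52.7% of all tiles. Runs differed more from the genome as a whole, with 11.7% in promoters (10.2 to 13.3), 71.6% in gene bodies, 16.7% in intergenic DNA and 19.0% in exons, where all tiles have 4.46%. The median distance to the nearest transcription start was 20449 bp for members, 25199 bp for all tiles and 5674 bp for runs. Intervals cover counting error over tiles only, and neighbouring tiles are not independent.

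Known binding motifs were counted in the members on both strands. None of the motifs named here is contained in another. The GATA motif AGATAAG was found in 4.16% of members and 2.78% of all tiles, and the forkhead motif TGTTTAC in 4.18% and 2.97%. GATA and forkhead factors are regulators of blood and liver development. The TEAD motif GGAATG was in 12.4% of members and 10.9% of all tiles. The Sp1 box GGGCGG was found in 3.67% of members and 2.87% of all tiles, but in 12.0% of tiles in runs. The ONECUT motif ATCGAT, which holds a CpG and is read by HNF6, was rarer, with 0.447% against 1.09%. The other motifs were found at similar rates, with 3.14% and 3.02% for the HNF4 site CAAAGTC, 5.52% and 5.98% for AP-1 (TGANTCA), 2.85% and 2.89% for the E-box CACGTG, 8.61% and 9.07% for the C/EBP motif and 0.176% and 0.164% for the CRE. Motif matches are a description of sequence and not of binding, and they were not adjusted for base composition.

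Peaks, called by the authors in each library, were compared with the tiles at a minimum overlap of 1 bp. In total, 29.6% of members (6233 tiles) overlapped a peak of any of the 13 lists, compared with 19.4% of all tiles and 53.6% of tiles in runs. H3K4me1, a mark of enhancers and of the flanks of promoters, was present in WT at 12.4% of members (Wilson interval 12.0 to 12.8), 7.65% of all tiles and 31.8% of tiles in runs. In DKO hepatocytes the shares were 13.0%, 7.78% and 30.4%. H3K27ac, a mark of active promoters and enhancers, was found in WT at 4.91% of members (4.63 to 5.21), 4.43% of all tiles and 9.53% of tiles in runs. In DKO it was at 6.51% (6.18 to 6.85), 4.86% and 16.2%. Since each mark has 1 library per genotype, a difference between WT and DKO cannot be told apart from a difference between libraries. The DKO list of H3K27ac holds 46782 peaks over 85665260 bp and the WT list 43085 peaks over 77578537 bp.

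Peaks of 5hmC at day 20, which lies between the ages that define the members, covered 13.8% of members (13.4 to 14.3), 9.56% of all tiles, 14.3% of tiles in runs and 19.8% of tiles that lost methylation. Open chromatin was rare at members. ATAC-Seq peaks of the 2 WT livers were at 0.404% and 0.461% of members, below the 0.873% and 1.04% of all tiles, and those of the 2 mutant livers at 0.352% and 0.618%, against 1.00% and 1.16%. Tiles in runs, in contrast, were above all tiles in each list, at 1.62% and 1.38% in WT and 1.14% and 1.86% in mutant livers. HNF6 peaks were rarer still. They covered 1 and 11 of the 21052 members in the 2 WT livers and 12 and 107 in the 2 mutant livers. These lists differ in size from 4387 to 34665 peaks, and over all tiles the shares were 0.0846%, 0.164%, 0.179% and 0.672%.

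**Figure D2:**
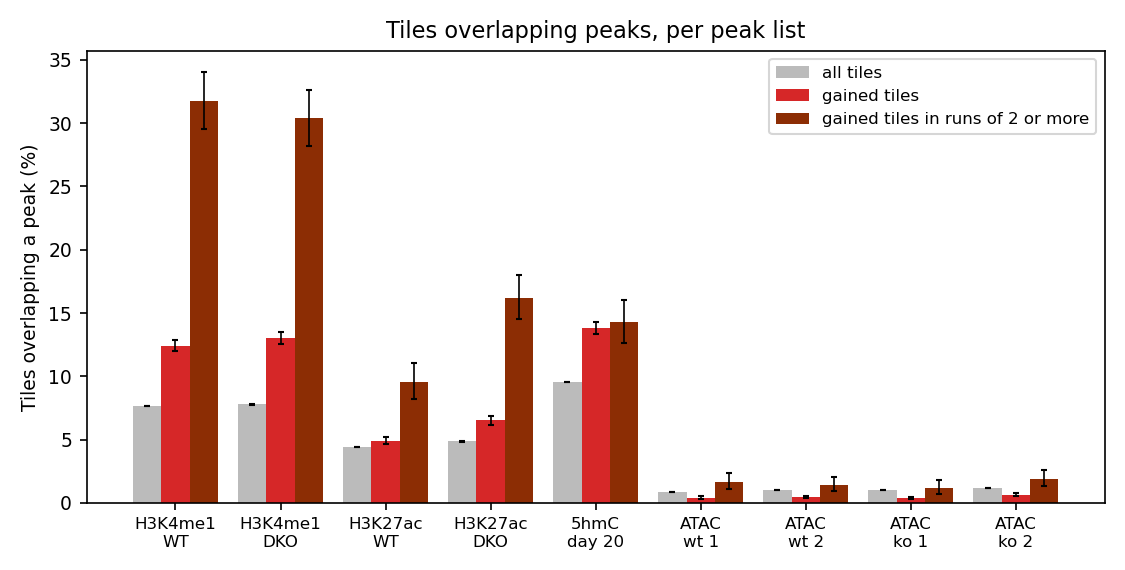
Share of tiles in percent that overlap a peak by at least 1 bp (vertical axis, from 0), per peak list (horizontal axis), for all tiles, gained tiles and gained tiles in runs of 2 or more; error bars are 95% Wilson intervals over tiles. Runs stand highest for H3K4me1 in WT with 31.8%, and all 4 ATAC lists are at or under 1.86% in every set.

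RRBS gave a second measurement in other samples. The labels do not say whether any of the mice also gave a WGBS library. RRBS tiles are 100 bp long, and 1940 of them lie in 1414 of the gained tiles. Of these, 516 in 363 gained tiles had a value in every hepatocyte sample and were tested in 1 limma fit over all 257117 such tiles, with Benjamini-Hochberg adjustment over all of them. Hence RRBS speaks of 363 of 21052 members, of which CpG-rich runs make up a large part, with 312 of the 516 RRBS tiles in runs.

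At these tiles, the RRBS means of the 3-week mice were between the newborn and the adult WGBS means. Those WGBS levels chose the tiles, and no RRBS of uncultured newborn hepatocytes was used. The position between them is a description and does not place 3 weeks between the 2 ages. Mean RRBS methylation over the 516 tiles was 52.2% and 53.1% in the 2 mice of 3 weeks, and 65.3%, 66.4% and 65.7% in the controls injected at 1 day. The controls injected at 3 weeks had 64.9%, 66.6% and 68.1%. All 6 adults therefore lay above both young mice, whereas over all RRBS tiles the group means were 52.3% at 3 weeks and 52.5% and 52.3% in the controls. WGBS at the same tiles was 26.8% in newborn and 70.7% in adult hepatocytes. By size of the WGBS gain, the 3-week mean was 53.6%, 53.5% and 48.7% at gains of 35 to 40, 40 to 50 and 50 points or more, and the adult controls had 63.6%, 67.2% and 69.6%. In bulk samples, a change in the share of a cell type and a change of methylation within the cells cannot be told apart.

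Compared with 3 weeks, 16 of the 516 tiles rose in the adult controls and 0 fell at an adjusted p under 0.05 (limma). The background was 0.112% of all tiles higher and 0.405% lower. At an unadjusted p under 0.05, 194 were higher and 1 lower. The median difference was 12.9 points, with a median SE of 7.67 points, and 0.0329 points over all tiles. In 204 of the 516 (39.5%) all 6 controls lay above both young mice, a pattern found in 4.64% of all tiles. Without 3-week mouse A the number of calls was 25, and it was 10 without control A of the 1-day injection and 8 with the 1-day controls alone.

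The Mbnl2 tile at chr14:120788401-120788600, in the promoter of a transcript of this splicing factor gene, had one of the highest increases. It was at 1.16% and 0% in the 2 mice of 3 weeks and between 58.1% and 61.7% in the 6 controls (59.2 points higher, SE 7.0, adjusted p = 0.00532, limma). Rnf39 was at 13.7% and 8.68% at 3 weeks. In the controls it was at 64.3%, 62.1% and 51.1% after injection at 1 day and at 62.9%, 68.0% and 69.0% after injection at 3 weeks (51.7 points, SE 6.56, adjusted p = 0.00752). In both genes the groups did not overlap, and the 3-week mice were far below every control.

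In RRBS at 3 weeks, Zmiz1 was higher than in the newborn WGBS library, whose low level helped to choose its tiles. The left of its 2 tiles shown above had 45.6% and 49.4% at 3 weeks, about midway between the newborn WGBS level and the 67.3% to 88.7% of the 6 controls (29.3 points, SE 3.90, adjusted p = 0.00993). Bdh1, which encodes the mitochondrial 3-hydroxybutyrate dehydrogenase of ketone metabolism, was at 60.8% and 58.8% in the young mice and 84.0% to 91.8% in the controls (28.7 points, SE 3.45, adjusted p = 0.00578). Ttc39b rose from 6.06% and 1.41% to between 48.8% and 86.7% (62.8 points, SE 9.20, adjusted p = 0.0161). Cyp26c1, a gene of retinoic acid breakdown, held 2 called tiles with 48.6 and 58.0 points. The remaining called tiles, in Neu2 and Ngef, Bop1 and Scx, Kifc2, Rps6ka4, Mib2 and Fbrsl1 and elsewhere in Zmiz1 and Rnf39, differed by 17.9 to 53.1 points. Of the 16 calls, 2 held in each of 12 alternatives, the Mbnl2 tile and the Rnf39 tile described above, and 14 were lost in at least 1. Those lost most often were Fbrsl1 (12 of 12), the other Rnf39 tile (11) and the tile in Neu2 and Ngef (10). RNA of the 3-week mice held Xist and almost no Y transcripts, in contrast to 5 of 6 controls. All 6 controls had also received the Cre virus, whereas the labels of the 3-week mice name no injection. Age, sex and injection therefore cannot be told apart in this comparison. Control C of the 3-week injection has the same pattern of Xist and Y transcripts as the young mice and had the highest member mean, 68.1%.

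In RNA, Tet2 was at 2.13, 1.63 and 0.890 FPKM in the controls injected at 1 day and at 4.08, 2.82 and 3.16 in their mutants, and Tet3 at 2.11, 2.55 and 1.68 against 2.78, 1.74 and 2.65. After injection at 3 weeks, Tet2 was at 2.56, 2.08 and 2.99 against 1.84 and 0.824, and Tet3 at 2.55, 2.89 and 2.44 against 1.67 and 1.56. These values count the whole gene, with exons outside the floxed part, and so do not check the deletion. Deletion of Tet2 and Tet3 at 1 day left the mean over the 516 tiles at 68.3% and 69.2% in the 2 mutants, slightly above the 65.3% to 66.4% of their controls. Over all RRBS tiles the group means were 54.3% in these mutants and 52.5% in their controls. After deletion at 3 weeks the mutants had 65.0% and 65.9%, within the range of their controls. The median difference over tiles was 2.47 points (median SE 8.58) for the 1-day and -1.12 points (median SE 8.58) for the 3-week deletion. After deletion at 1 day 2 tiles rose and 2 fell, against 2.45% higher and 0.133% lower of all tiles. After deletion at 3 weeks 1 tile rose and 0 fell, against a background of 0.555% and 0.0809%, and at an unadjusted p under 0.05 15 were higher and 24 lower. Both mutants lay above all 3 controls in 113 tiles (21.9%, all tiles 14.0%) and below them in 46 (8.91%, all tiles 7.34%) for the 1-day deletion. At tiles that lost methylation, by comparison, the mean was 76.2% in the 1-day mutants and 19.9% in their controls.

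The 4 tiles called after deletion at 1 day fall into 2 kinds. In Kremen1 the controls had 28.2%, 24.2% and 41.5% and the mutants 73.2% and 75.0% (42.8 points, SE 8.88, adjusted p = 0.0309, limma), and in Tenc1 the controls had 51%, 41.0% and 53.5% and the mutants 83.1% and 81.7% (33.9 points, SE 5.54, adjusted p = 0.00787). In these tiles the mutants exceeded every control. In Rnf39 the mutants had 22.9% and 13.5%, against 51.1% to 64.3% in the controls (-41.0 points, SE 7.34, adjusted p = 0.0138). In Mapk15 the controls had 50.6%, 50.9% and 32.7% and the mutants 9.64% and 2.09% (-38.9 points, SE 8.54, adjusted p = 0.0419). In both of these the mutants were at the level of the 3-week mice, 13.7% and 8.68% in Rnf39 and 3.92% and 3.45% in Mapk15. Deletion at 3 weeks left Rnf39 at 62.7% and 49.4%, against 62.9% to 69.0%, and Mapk15 at 27.8% and 12.8%, against 31.7% to 53.0%, differences that did not pass the test. Each of the 4 calls was lost in at least 1 alternative, and 1 call was left without control A, without control B or without mutant A, and 2 without mutant B.

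The single tile called after deletion at 3 weeks lies in Ston1, a gene of endocytosis, and was at 0% in all 3 controls and at 15.8% and 26.1% in the mutants (20.9 points, SE 3.73, adjusted p = 0.0395). The effect of the 1-day deletion differed from that of the 3-week deletion at 1 tile in Iqcj, where it was lower, against 0.0432% lower and 0.332% higher of all tiles. This tile holds 1 CpG. Of the 2 tiles named last, neither was called on the logit scale, and leaving out single mice gave 0 or 1 call in both comparisons.

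Without the insulin receptor, methylation at the members was lower than in the controls injected at 1 day. The means were 57.5% and 59.5% in the 2 InsR KO mice and 65.3% to 66.4% in the controls. The median difference was -6.12 points (median SE 8.58), and 0 points over all tiles. Of the 516 tiles 10 fell and 0 rose, against a background of 0.776% lower and 0.373% higher, and at an unadjusted p under 0.05 84 were lower and 4 higher. Both InsR KO mice lay below all 3 controls in 158 tiles (30.6%, all tiles 9.13%). Without control C of the 1-day injection 5 tiles were called. The labels give no age for the InsR KO mice, so genotype and any difference of age from the controls cannot be told apart.

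The calls were concentrated in a few genes. A run of 6 tiles at chr17:34087801-34089000, over the start of B3galt4 (a galactosyltransferase of ganglioside synthesis) and the neighbouring ribosomal protein gene Rps18, held 5 of the 10. Its RRBS mean was 3.46% and 7.13% in InsR KO mice, against 66.0%, 64.6% and 72.3% in the controls. It was at 38.7% and 54.7% in the mice of 3 weeks, at 1.39% in fat and at 0.347% in neutrophils, so that the InsR KO mice were far below the young mice and near the other tissues. The highest single difference was in the promoter of Rin2, which encodes an exchange factor of Rab5. Here the controls had 87.7%, 100% and 100% and the InsR KO mice 21.1% and 16.7% (-77 points, SE 3.91, adjusted p = 7.72e-06). Kifc2, a kinesin gene, had 2 called tiles with -27.1 and -41.4 points (adjusted p = 0.00496 and 0.000802), Zmiz1 1 with -37.4 points (adjusted p = 0.0122) and 3930402G23Rik 1 with -26.1 points (adjusted p = 0.0173).

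In liver cells of newborn mice kept in culture, the members were low. Their mean was 33.7% and 36.1% in the 2 cultures, against 52.2% and 53.1% in the 3-week mice, whereas over all RRBS tiles the means of both groups were 52.3%. Of the 516 tiles 49 fell and 0 rose, against a background of 0.28% lower and 0.483% higher (limma), and at an unadjusted p under 0.05 208 were lower and 7 higher. The median difference was -17.3 points (median SE 9.40), and in 317 tiles (61.4%, all tiles 13.4%) both cultures lay below both mice. Without culture B the number was 78. The tiles with the largest WGBS gain, 50 points or more, were at 24.5% in culture and 48.7% at 3 weeks.

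Culture differences spread over more genes than those of the other comparisons. An intergenic run at chr15:100883401-100884600 held 8 called tiles, and its mean was 41.1% and 42.6% in culture and 81.0% and 80.8% at 3 weeks. In the promoter of Adra1b, the gene of the alpha-1B adrenergic receptor, one tile was at 9.62% and 32.0% in culture and 77.8% and 85.6% at 3 weeks (-60.9 points, SE 5.88, adjusted p = 0.000871). Patz1, which encodes a zinc finger transcription factor, had 3 called tiles with -29.6 to -54.8 points, and Rin2 was at 9.09% and 9.52% against 86.5% and 85.2% (-76.5 points, SE 4.28, adjusted p = 3.32e-05). Afp itself had a called tile at 15.9% and 36.2% against 67.6% and 60.5% (-38.0 points, SE 6.09, adjusted p = 0.0187). Of all the tiles called, 2 passed in both the age and the culture comparison, which share the 3-week mice. The cultures differ from these mice in age at isolation, in sorting and in growth outside the body, and these cannot be told apart.

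Fat and neutrophils were low at the members, at 32.5% and 33.1%, although over all RRBS tiles they had 49.8% and 54.0%. In runs they were at 24.1% and 24.0%, and in single tiles at 45.4% and 46.9%. The Zmiz1 run was at 1.36% in fat and 0.0552% in neutrophils, against 71.7% to 76.8% in the 6 adult controls. Conversely, the run of Rps6ka4, which encodes a stress-activated kinase, was at 81.6% and 93.4% in these tissues and at 79.4% to 85.5% in the controls. Thus the runs are of both kinds, methylated in hepatocytes alone of these 3 cell types and methylated in all of them. Each tissue is 1 sample with no error.

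**Figure D3:**
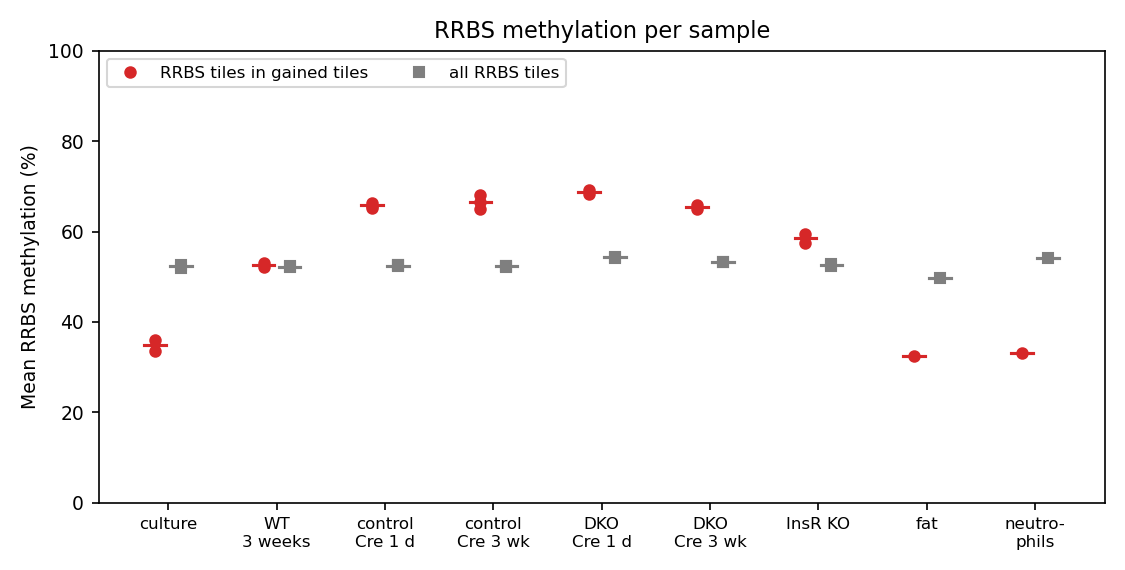
Mean RRBS methylation in percent (vertical axis) per sample, over the 516 RRBS tiles in gained tiles (circles) and over all 257117 tiles (squares); each point is 1 mouse, culture or tissue sample and lines are group means. At gained tiles the order of group means is fat 32.5%, neutrophils 33.1%, culture 34.9%, 3 weeks 52.6%, InsR KO 58.5%, then controls and DKO from 65.4% to 68.7%, while over all tiles every group is between 49.8% and 54.3%.

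The 9 runs of 7 or more tiles lay in Nfib, Rps6ka4, Zmiz1, Nfix, Hsd17b11, Gm1614, Il1r1, Fam65a and Bdh1. The 10 tiles of Nfib at chr4:82182401-82184400 had 27% in newborn, 75.4% in adult WT and 77% in DKO. The 10 tiles of Rps6ka4 at chr19:6904201-6906200 had 34.1%, 80.9% and 80.5%. The run of 9 tiles in Zmiz1, chr14:26426001-26427800, contains 180 CpG sites and had 14.1%, 75.5% and 72.7%. In all 3 the mutant was close to the adult level. The run of 8 tiles in Nfix was at 17.5%, 66.7% and 68.1%, and its RRBS values went from 39.8% and 36.4% at 3 weeks to 57.6% to 66.8% in the controls, with 20.4% and 15.4% in culture. Among runs of 5 or more tiles, those in Rnf39 (12.9%, 70.8% and 36.1%) and Mapk15 (8.57%, 52.0% and 20.3%) had the lowest mutant levels.

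Of 21415 protein-coding genes with a measured tile, 5062 (23.6%) held a gained tile in their promoter or body, 556 in the promoter, and 1075 held 3 or more. Long genes hold more tiles, and the median number of measured tiles was 223 in genes with a gained tile, 616 in those with 3 or more and 69 in all. The highest number, 62, was in Gm20388, a readthrough gene that spans 19515 tiles. Msi2, an RNA-binding protein gene, held 28, Afp 25, the growth factor receptor gene Fgfr2 24, Arfip1 21, the forkhead gene Foxp1 20, Nfix 19, Cntnap2 and Shroom3 18 each and Erbb4 17. Of these, Afp is by far the shortest, with 85 measured tiles. The annotated spans of Fgfr2 and Arfip1 hold 11501 and 5135 measured tiles. Their counts may include tiles that lie in neighbouring genes, which was not tested. Of these 10 genes, 8 (all but Msi2 and Afp) lost methylation at more tiles than gained it, such as Fgfr2 with 174 lost and Nfix with 56.

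Afp (ENSMUSG00000054932.3, chr5:90919740-90937933) had 25 gained and 0 lost tiles, and 19 of the 25 were in runs. Their means were 25.6% in newborn, 76.7% in adult WT and 74.3% in DKO. With its flanks on either side, 29 of 107 tiles were members, from 39 bp before to 20561 bp after the transcription start. Over all 107, the means were 44.5%, 67.6% and 70.8%. RRBS covered the gene thinly. The tile called in culture was at 64.0% to 74.1% in the 6 controls, at 71.3% and 73.9% in the 1-day mutants and at 0.901% in neutrophils.

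**Figure D4:**
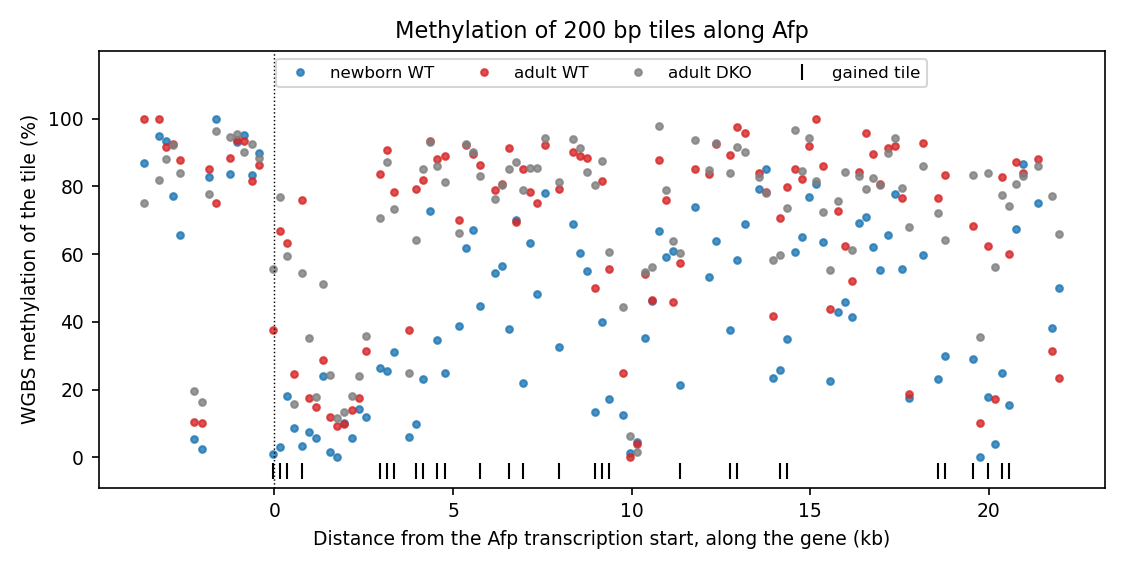
WGBS methylation in percent (vertical axis) of the 107 tiles along Afp against distance from its transcription start in kb (horizontal axis), in newborn WT, adult WT and adult DKO hepatocytes (1 library each); ticks at the bottom mark the 29 gained tiles. Over all 107 tiles the newborn mean is 44.5%, below 67.6% in adult WT and 70.8% in DKO.

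In the density of gained tiles, Fabp5, which encodes a fatty acid-binding protein, came first with 14 of 30 tiles (21.1%, 71.4% and 74.7%). Nkx2-6, a homeobox gene, followed with 12 of 29 (17.1%, 65.7% and 59.8%). Other dense genes were B3galt4 with 6 of 18, Scx with 5 of 18, Hsf4 with 9 of 36, Rnf39 with 7 of 33 and Hapln4 with 7 of 42. Together they lost methylation at 1 tile, in Rnf39. These genes were ranked by density after the values were seen.

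Expression was compared in FPKM, fragments scaled to transcript length and to library size, on the scale log2(FPKM + 1), with 1 limma fit over 11166 genes. Of these, 2732 held a gained tile, 329 of them in the promoter and 624 with at least 3. A gene holding a gained tile is most often a long gene with a tile in an intron, so that a count over these genes does not speak of methylation as a cause. From 1 to 15 weeks, 404 of the 2732 rose (14.8%) and 623 fell (22.8%), against 14.1% and 18.8% of all genes. With a gained promoter tile, 42 of 329 rose and 96 fell (29.2%). Median log2 differences were -0.06, -0.12 and, over all genes, -0.01. The 1-week group is 1 library and is assumed to vary like the other groups. It stood apart in erythroid markers, whose sum over 6 genes was 1675 FPKM against 6.66 to 71.9 in all other libraries, and in leukocyte markers, at 49.4 against 0.274 to 4.57. Their part in these differences was not tested.

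The size of the gene moved with these counts. Among genes with 1 to 50 measured tiles, 83 of 259 with a gained tile fell (32.0%) and 466 of 2444 without one (19.1%). With more than 500 tiles, 84 of 535 (15.7%) and 13 of 109 (11.9%) fell. From 3 to 15 weeks, 700 of the 2732 rose and 333 fell, against 24% and 9.32% of all genes, and in the promoter group 70 rose and 50 fell. When each library was centred on its median, a setting added after seeing the data, 438 rose and 625 fell, so the direction of this comparison depends on the scaling. Centring moved the median of all genes from 0.15 to -0.04. It left the order for 1 to 15 weeks as it was, with 530 higher and 686 lower.

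Genes that fell with a gained promoter tile were led by Afp. It was at 8898 FPKM at 1 week, 1.5, 3.00 and 4.33 at 3 weeks and 0.925, 0.896 and 0.839 at 15 weeks (log2 difference from 1 to 15 weeks -12.20, SE 0.26, adjusted p = 5.25e-14, limma). Nearly all of this fall preceded 3 weeks. The RRBS tile called in culture was already at 67.6% and 60.5% at that age, and its neighbour at 50.7% and 61.7%. That called tile lies in the WGBS tile centred 14161 bp after the transcription start. RRBS did not cover the gained promoter tile, so its methylation at 3 weeks is unknown. Grb10, an adaptor that restrains insulin and IGF receptors, fell from 98.5 to 0.182, 0.412 and 0.239 (-6.29, SE 0.22, adjusted p = 1.13e-11). The zinc transporter gene Slc39a5 fell from 71.3 to 0.274 to 0.385 (-5.75), the tetraspanin gene Cd63 from 36.0 to 0.171 to 0.471 (-4.84), and the dicarboxylate transporter gene Slc13a3 from 110 to between 3.21 and 7.15 (-4.37). All 5 were lower in every 15-week library than in the 1-week library.

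Genes that rose most with a gained promoter tile included a transporter and an enzyme of tryptophan breakdown. The organic anion transporter gene Slco2b1 went from 1.39 to between 43.4 and 45.3 (4.24, SE 0.23, adjusted p = 2.49e-09). The tryptophan dioxygenase gene Ido2 went from 2.08 to between 19.7 and 23.0 (2.88, SE 0.21, adjusted p = 5.71e-08). For 1500017E21Rik and the phospholipid transfer protein gene Pltp the differences were 3.93 and 3.17. The named genes were taken in each direction by rule, so they do not compare the directions. In the whole promoter group of 329 genes, 42 rose (12.8%) and 96 fell (29.2%), against 14.1% and 18.8% of all genes. Ido2 held 8 gained and 26 lost tiles and Slco2b1 13 and 20, whereas Afp, Cd63 and Pltp had 0 lost ones.

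Deletion at 1 day changed 583 of the 2732 genes, of which 132 rose and 451 fell, against 4.33% higher and 15.6% lower of all genes. With the libraries centred on their medians, 385 rose and 333 fell, so that the predominance of lower genes depends on the scaling, which moved the median of all genes from -0.11 to 0.03. The erythroid marker sum was also lower in these mutants, at 13.4 to 16.9 FPKM against 54.3 to 71.9 in their controls with no overlap, and its part in the calls was not tested. After deletion at 3 weeks 20 rose and 220 fell, against 0.905% and 4.34%, and 114 rose and 189 fell after centring. Before centring, the share that fell after deletion at 3 weeks also moved with gene size. Among genes with 1 to 50 measured tiles, 6 of 259 with a gained tile fell (2.32%) and 43 of 2444 without one (1.76%). With more than 500 tiles, 84 of 535 (15.7%) and 4 of 109 (3.67%) fell. Protein-coding genes with 3 or more gained tiles held a median of 616 measured tiles, and the part of size in their counts was not tested. Among genes with 3 or more gained tiles, 1 rose and 84 fell after deletion at 3 weeks (17 and 66 after centring). Without mutant B of this group, 15 genes in place of 240 were called in all.

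Genes with at least 3 gained tiles that fell most after deletion at 1 day included Mapk15, whose tile also fell. Its FPKM was 0.679 at 1 week, 0.206, 0.243 and 0.226 at 3 weeks and 9.05 to 11.7 at 15 weeks. In the controls it was at 10.7, 12.9 and 8.04 and in the mutants at 1.89, 1.60 and 2.19 (-1.98, SE 0.20, adjusted p = 2.75e-05). After deletion at 3 weeks it was at 2.14 and 1.82, against 6.46 to 12.7. Hence at Mapk15 RNA and methylation of this tile both fell in the 1-day mutants, and in both measures the 3-week WT mice lay below every control, whereas the methylation differences with age and after deletion at 3 weeks did not pass the test. Rnf39, chosen after its values were seen, was also lower in both measures in the 1-day mutants. It overlaps Ppp1r11 in the annotation, so that reads of the 2 genes may not be told apart. It was at 0.135 FPKM at 1 week, 1.58 to 2.76 at 3 weeks and 3.27 to 4.10 at 15 weeks, and at 3.57, 4.78 and 3.86 in the controls and 0.95, 0.390 and 1.77 in the 1-day mutants (-1.37, SE 0.21, adjusted p = 0.000833). For Kremen1 and Tenc1, where the mutants had more methylation, the log2 differences were -0.04 and -0.46 (adjusted p = 0.883 and 0.0856).

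The other genes of this group that fell were Plbd1 (-2.59), Ddah1, which breaks down methylated arginines (-2.33), Slc13a3 (-2.18) and the calmodulin kinase gene Camk1d (-1.94). Those that rose most were the calcium pump gene Atp2b2 (1.44), the fatty acid uptake gene Cd36 (1.42), Igfbp1, which binds IGFs (1.33), Inhba, a subunit of activin A (1.28), and Slc35f1 (1.18). Of 28 calls of named genes in this comparison 16 held in each of 9 alternatives. The others were lost in at least 1, among them Igfbp1 in 5, Inhba in 4, Hnf4a in 5 and Tbx3 in 6. Of the promoter group, Slc39a5 was raised in the mutants, with 1.73, 2.06 and 2.07 against 0.208 to 0.298 in controls (1.23, SE 0.17, adjusted p = 0.000328). Slco2b1 was reduced, with 19.9, 21.5 and 19.2 against 43.0 to 47.7 (-1.15, SE 0.16, adjusted p = 0.000444). Afp was not called, with 0.274, 0.268 and 0.245 against 0.404 to 0.540 (adjusted p = 0.406). Nfix, which rose from 5.69 at 1 week to 16.4 to 18 at 15 weeks (1.44), fell in the mutants by 0.73 on the log2 scale (SE 0.13, adjusted p = 0.0027).

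**Figure D5:**
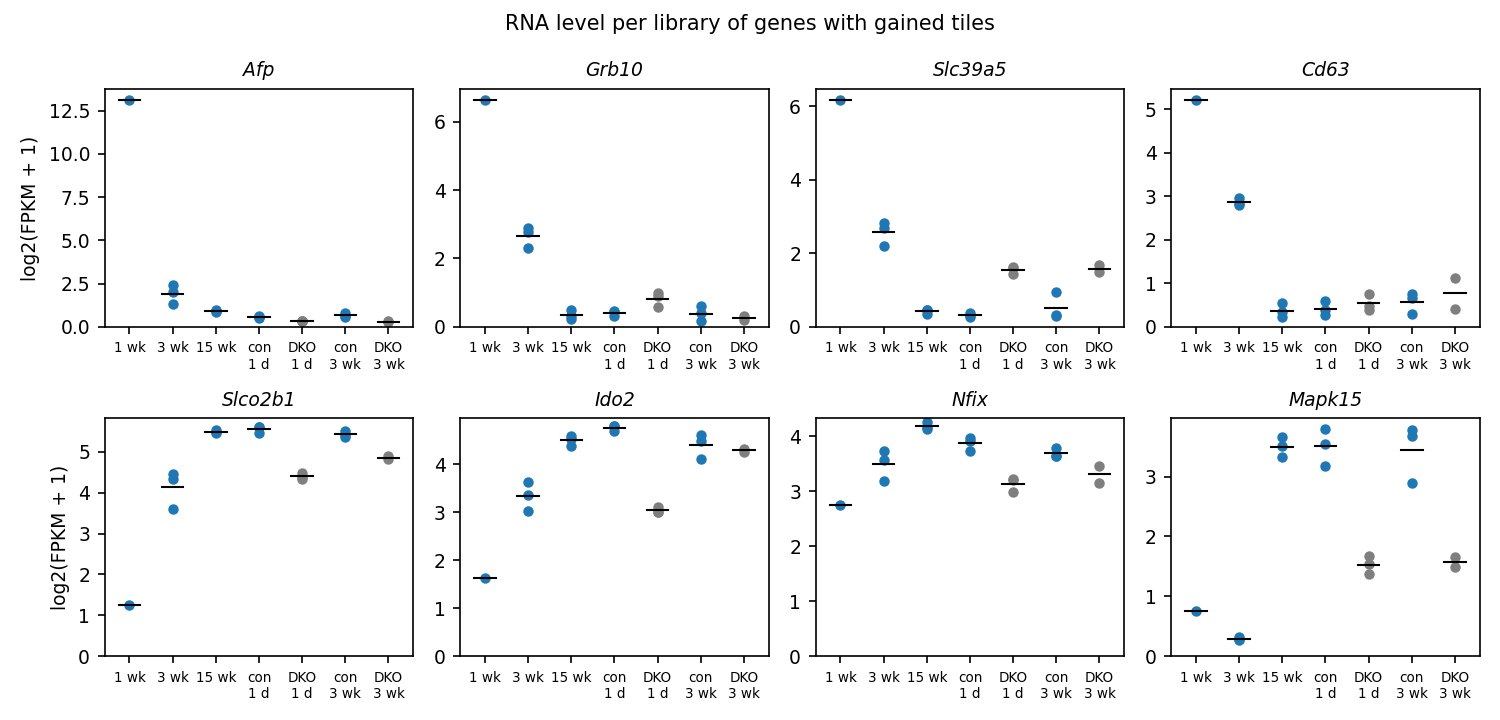
RNA level as log2(FPKM + 1) (vertical axes, from 0) per library in each group (horizontal axes: WT at 1, 3 and 15 weeks, then controls and DKO by time of injection) for 8 genes with gained tiles; points are libraries, lines are group means and DKO is in grey. Afp, Grb10, Slc39a5 and Cd63 are highest at 1 week and intermediate at 3 weeks, and Slco2b1, Ido2, Nfix and Mapk15 are higher at 15 weeks than at 1 week, with Mapk15 between 1.60 and 2.19 FPKM in the 1-day mutants.

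Lists of genes with a shared role were compared with the members by counts. For all coding genes the corresponding background was 23.6% with a gained tile, and 0.262% of all tiles gained. From 1 to 15 weeks 14.1% of all genes rose and 18.8% fell, and after deletion at 1 day 4.33% and 15.6%. Of 20 fetal liver and imprinted growth genes, 12 held a gained tile, 58 tiles or 1.46% of those measured in the list, of which Afp had 25 and Grb10 16. From 1 to 15 weeks, 13 of the 15 tested fell and 1 rose, Slc38a4 by 1.17. Median log2 difference was -5.28. Igf2, the fetal growth factor, went from 1022 to between 0.0455 and 0.0877 FPKM and held 3 gained tiles, and Peg3, with 1 such tile, fell by 5.28. After deletion at 1 day 2 rose and 2 fell. With centred libraries 4 rose and 0 fell.

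Among 9 genes of DNA methylation enzymes, 6 held a gained tile, 9 tiles in all or 0.414%. Dnmt1 fell from 7.07 FPKM at 1 week to 1.99 to 2.12 at 15 weeks (-1.41, SE 0.16, adjusted p = 8.28e-06), Dnmt3b by 2.02 and Dnmt3a by 0.60, and in all 4 of the 6 tested fell and 0 rose. Hence transcripts of the enzymes that place and keep methyl groups were higher in the newborn library than in adults. In DKO mice injected at 1 day, Dnmt3a was called lower (-0.37) and Tet2 higher (0.79). With centred libraries 2 rose and 0 fell, so that the call of Dnmt3a depends on the scaling.

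Of 16 cell cycle genes, 5 held a gained tile (8 tiles, 0.427%), and 14 of 15 tested fell from 1 to 15 weeks. E2f1, with 3 gained tiles, fell by 1.17, and Mcm2, a helicase subunit of replication with 1 tile, by 2.27. For 20 blood cell development genes the count was 8 with 12 tiles (0.408%), and 6 of 9 tested fell and 1 rose, Zfpm1 by 0.88. In contrast, 22 liver transcription factors held 21 gained tiles in 10 genes (0.559%), and 2 rose and 2 fell. After deletion at 1 day 7 of these 22 fell and 0 rose (5 and 0 with centred libraries), among them Nr5a2 by 0.72, Hnf4a by 0.64 and Tbx3 by 1.72. Of 17 growth and insulin signaling genes, 7 held 10 tiles, or 0.145%, the lowest share of the lists. Here 4 rose and 0 fell from 1 to 15 weeks, with Egfr by 3.28 and Igf1 by 1.21, and 4 fell and 0 rose after deletion at 1 day (3 and 0 with centred libraries).

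Hepatocyte markers were high in every RNA library, with a sum over 6 genes of 12168 to 19939 FPKM. Endothelial markers, summed over 4 genes, were at 7.25 to 12.3 FPKM in the 3-week mice and at 1.14 to 6.55 in all other libraries, and their part in the comparisons with 3 weeks was not tested. The effect of deletion at 1 day minus that of deletion at 3 weeks was positive for 2.33% and negative for 3.04% of all genes. RNA of the 3-week mice and of control C of the 3-week injection came from animals with Xist, as described above.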

How the data were processed

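Methylation tables, expression values and peak lists were analysed as deposited. The authors trimmed and aligned bisulfite reads and gave the methylation of each tile as a fraction from 0 to 1, with at least 15 CpG readings for a 200 bp WGBS tile and 10 for a 100 bp RRBS tile, and fractions are printed here in percent. BSMAP 2.74, Bowtie2 2.2.4, Trim Galore 0.3.3 and cutadapt 1.15 are named in the submitters' processing notes. Coverage per tile is not in the tables used, so the depth behind a value is unknown and its precision was taken from the spread between mice. Expression was deposited by the authors as FPKM for 24397 genes, and an exact 0 can be a failed estimate (Alb is listed at 0). The deposited peak lists of HOMER findPeaks give a signal as tags scaled to a common total and a score per peak, and peaks were called by the authors in each library. Total tags ranged from 13437081 to 90249422.

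Columns were used where their names or animal numbers matched the labels, 18 of 61 RRBS and 18 of 24 expression columns, and 49 sample columns were not used. RRBS columns named by an animal number alone were assigned through the same number in the expression table. Animal numbers differ between replicates, which are taken as separate mice. Where nothing says that cultures are separate, their spread may be technical. Tiles were placed on GENCODE vM1 (NCBIM37, mm9), to which 19613 gene names matched. RRBS fractions were tested with limma 3.58.1 in R 4.3.3 in 1 fit over all hepatocyte groups with Benjamini-Hochberg adjustment at 0.05, and RNA likewise as log2(FPKM + 1) over genes whose mean reached 1 FPKM in any condition. Fold changes on this scale understate changes of low genes. Wilson intervals (95%) and peak overlaps (at least 1 bp) were computed over tiles. The tests were run on data with known differences first. Tiles were named by gain (the 5 highest with an RRBS tile and the 5 highest in protein-coding promoters), by an RRBS call after deletion at 1 day (up to 5), and by run length (the 3 longest). Genes were named by number of gained tiles (10), by change among called genes with a gained promoter tile (5 in each direction, 1 to 15 weeks) or with at least 3 gained tiles (5 in each direction, deletion at 1 day), and from the gene lists. A gene that this rule names is not reported here. Genes ranked by density and other genes at called tiles were chosen after their values were seen. The members and lists were chosen with earlier results of these data known. Alternatives were another scale, thresholds, filters, gene sets and the omission of each mouse.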

Additional observations from a re-analysis of the deposited data

Results flagged for a closer look

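The effect of deletion at 1 day differed from that of deletion at 3 weeks, by a test of the difference itself in the fit over all tiles or genes, for 1 RRBS tile and for genes with gained tiles, of which 11 were named by rule or as list members. In the Iqcj tile at chr3:67823701-67823800, which holds 1 CpG, the difference of effects was -64.7 points (SE 10.1, adjusted p = 0.0258, limma). The 1-day controls had 85.7%, 76.2% and 92.9% and their mutants 58.8% and 57.1%, whereas the 3-week controls had 55.8%, 53.6% and 56.6% and their mutants 89.4% and 96.8%. The controls of the 2 times of injection did not overlap either.

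In RNA, the difference of effects on the log2 scale was -1.62 for Ido2, -1.63 for 1500017E21Rik, -1.48 for Plbd1 and -2.37 for Nr0b2, with a lower value after deletion at 1 day. It was 1.72 for Cd36, 1.23 for Atp2b2, 2.53 for Inhba, 2.55 for Irs2, 1.63 for Peg3, 0.52 for Slc35f1 and 1.42 for Tet2. Ido2 stayed called in 14 of 14 alternatives, with adjusted p from 0.000523 to 0.0280 (limma). 1500017E21Rik was called in 10, Cd36 in 9, Inhba and Tet2 in 7, Irs2 and Peg3 in 6, Nr0b2 and Plbd1 in 5 and Atp2b2 and Slc35f1 in 4. Among genes at named or called tiles the test also passed for Zmiz1 (1.40), Dab2ip (0.72), 3930402G23Rik (0.44) and Rps18 (-1.12). The 3-week mutants are 2 mice, and control C of this group differs from the others in sex.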

How the results depend on the processing

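None of the called tiles, and none of the called genes named by rule or list, changed sign in an alternative. Those not called were not checked for a change of sign. With centred RNA libraries, however, the balance of calls turned from 700 higher and 333 lower to 438 and 625 between 3 and 15 weeks, and from 132 and 451 to 385 and 333 with deletion at 1 day. The number of gained tiles was 93940 at a minimum of 25 points, 2284 at 50 points, 1669 in runs and 237 with RRBS of at most 20% in fat and neutrophils. The share of members with methylation in the mutant was 70.5% at 20 points above the newborn and 70.4% where it held at least 50% of the gain. Promoters held 2.33% with protein-coding transcripts alone. The share with a peak was 25.7% at 100 bp overlap, 19.0% with the higher-scoring 50% of peaks and 53.6% in runs. Leaving out single mice gave 10 to 25 calls with age (8 with 1-day controls alone), 1 to 4 with deletion at 1 day (12 with at least 2 values per group, 1 at gains of 50 points), 0 to 1 with deletion at 3 weeks (0 on the logit scale, 2 with at least 2 values), 0 to 1 for the difference of the deletions (0 on the logit scale), 5 to 14 with InsR KO (6 on the logit scale) and 37 to 78 in culture. In RNA, the 329 genes with a gained promoter tile and the 624 with at least 3 tiles gave 138 and 261 calls from 1 to 15 weeks. They gave 120 and 255 calls from 3 to 15 weeks, 73 and 140 with deletion at 1 day and 35 and 85 with deletion at 3 weeks. Of all 11166 genes, 14.1% rose and 18.8% fell from 1 to 15 weeks, and 24% and 9.32% from 3 to 15 weeks. With deletion at 1 day these shares were 4.33% and 15.6%, and with deletion at 3 weeks 0.905% and 4.34%. In the promoter group 5.78% rose and 16.4% fell with deletion at 1 day, close to all genes. Leaving out single mice gave 262 to 561 calls with deletion at 1 day (262 without control C, 294 without mutant A, 386 without mutant C) and 15 to 169 with deletion at 3 weeks (15 without mutant B, 84 without control A, 116 without mutant A, 152 without control C), and no filter gave 149. The cause was not tested. No paired analysis was possible because the columns carry no replicate number of the labels. WGBS and the histone marks have 1 library per condition, and 516 RRBS tiles stand for 363 members.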
